A study of Homo sapiens with 17 samples.

Results

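The complement genes C3, CFB, C1S, C1R, SERPING1, CD46, CD55 and CD59 were followed in MDA-MB-231 cells given TRAIL. They are 8 of the 58870 entries of the deposited table, each with 1 row found by its symbol. The set was chosen by a measured value, the strong fall of C3 at 12 h against 0 h, so that this fall is described here and not tested. MDA-MB-231 is an established human line from a triple-negative breast cancer, labelled mesenchymal Basal B. TRAIL, a death ligand of the TNF family, was given at a suboptimal 45 nM, and RNA was taken at 0, 1, 3, 6, 12 and 24 h, with 3 libraries at each time except 1 h, which had 2. All 17 libraries, those at 0 h included, carry the label TRAIL treated and come from 1 line grown in RPMI with serum. Time with TRAIL and time in culture therefore cannot be told apart, and in RNA from whole cultures fewer expressing cells and less RNA per cell cannot be told apart either. Nothing in the labels says whether replicates were separate cultures, so p-values measure the spread between these libraries, which may be technical.

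Complement is a cascade of plasma and cell surface proteins that marks targets for removal or lysis. C3 is its central component: convertases cut it, and the C3b fragment binds covalently to nearby surfaces. The classical pathway starts when C1r and C1s, the proteases of the C1 complex, are switched on and cleave C4 and C2. Factor B, encoded by CFB, supplies the protease of the alternative pathway convertase, and the C1 inhibitor, encoded by SERPING1, blocks C1r and C1s. Host cells protect themselves with membrane proteins: CD46 is a cofactor for the cleavage of C3b and C4b, CD55 speeds the decay of convertases, and CD59 blocks assembly of the membrane attack complex. The liver makes most plasma complement, but epithelial and tumour cells also make several components.

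Library totals ran from 13731520 to 19234924 expected counts. Replicates 2 and 3 at 6 h, and replicates 2 and 3 at 24 h, were closer to each other than any other pair (chi-square per gene of 1.55 and 1.68, against 3.86 to 14.6), yet still differed by more than sampling noise, and they were kept apart. The mesenchymal markers VIM, CD44, SPARC, AXL, CAV1 and MSN summed to between 6544 and 7494 CPM, the count scaled to the library's TMM-adjusted total, although SPARC averaged only 0.541 CPM at 6 h and 0.619 CPM at 24 h. ESR1 and PGR had at most 2 and 1 counts, whereas the epithelial keratin KRT8 averaged 930 CPM at 6 h. Of the other luminal or epithelial markers, ERBB2 averaged 61.4, KRT18 601, EPCAM 13.7 and CDH1 0.609 CPM at 6 h. Markers of other cells were in part present: CD68 averaged 73.6 CPM, CSF1R 3.02, COL1A1 13.1, COL1A2 6.82, PDGFRB 2.10 and PECAM1 1.04 CPM at 6 h. Other markers of the same lists were close to absent, with CD163 at 0 in every library and at most 5 counts of PTPRC, 1 of DCN, 2 of CDH5 and 2 of ALB in any library.

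At 0 h the membrane inhibitors were the most abundant transcripts of the set per kilobase of transcript. CD59 stood at 76.1 ± 1.74 CPM per kilobase (SD, n = 3), CD55 at 50.2 ± 2.67 and CD46 at 49.0 ± 2.15, the last 2 within their spread of each other. CFB followed at 22.5 ± 1.39 CPM per kilobase. C1R at 6.42 ± 0.460 and C3 at 6.09 ± 0.552 CPM per kilobase were not separated by their spread, and C1S stood at 1.29 ± 0.259. SERPING1 was close to absent, with 1 to 5 counts per library at 0 h and 0 to 2 counts in every later library, too few to be tested. The other 7 members passed the count filter, and each had at least 19 counts in every library, so that none of them passed through 1 group alone.

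**Figure D1:**
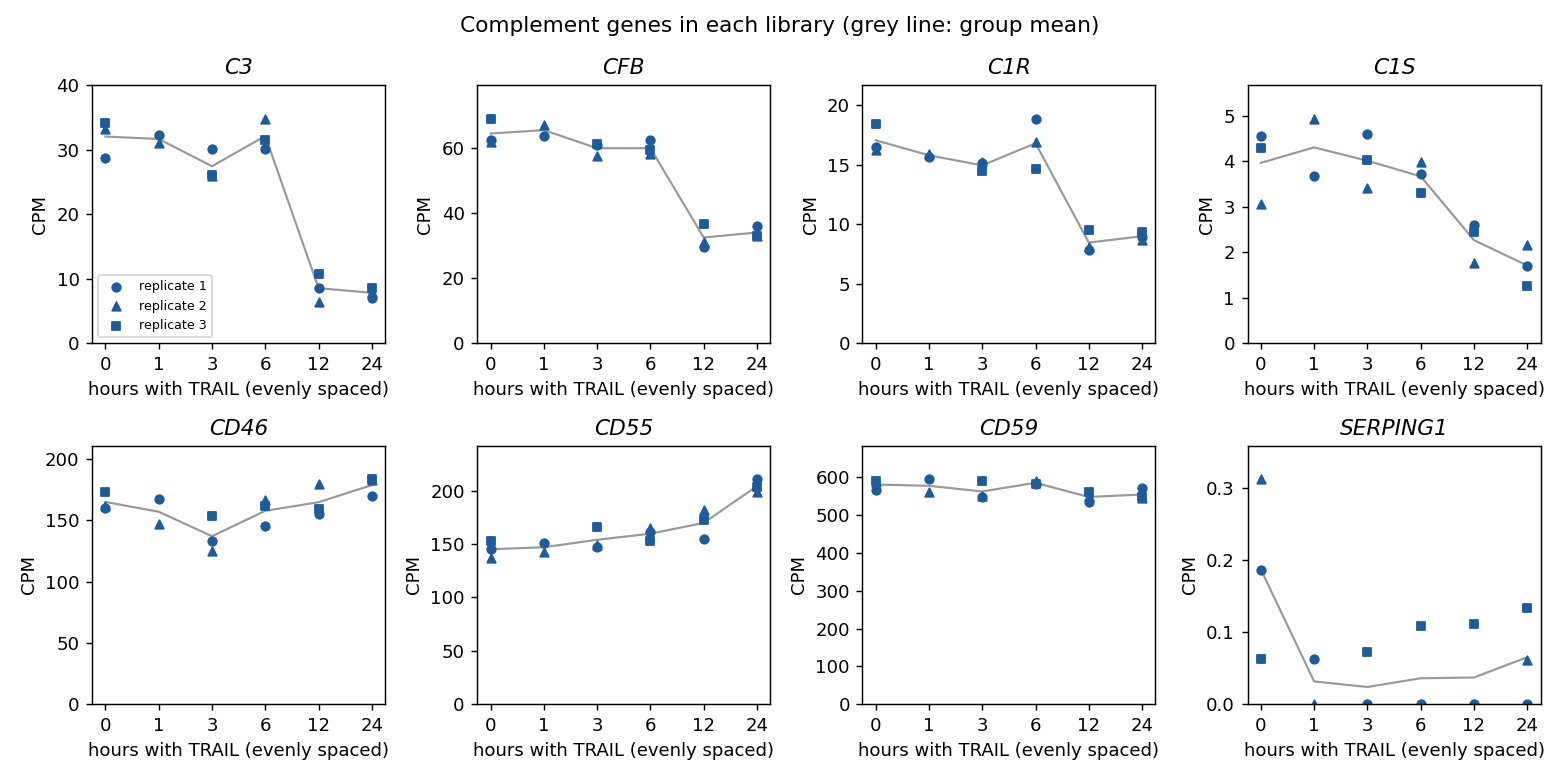
Level of each of the 8 complement genes in CPM (vertical axis, from 0) against hours with TRAIL (horizontal axis, times evenly spaced); each symbol is 1 library, its shape the replicate number, and the grey line joins group means. C3, CFB, C1R and C1S drop between 6 and 12 h, CD55 is highest at 24 h, and SERPING1 rests on at most 5 counts.

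C3 held its level for 6 h and then stood at 26.6% (12 h) and 24.5% (24 h) of its fitted 0 h level. Its levels were 28.7, 33.3 and 34.2 CPM at 0 h and 32.2 and 31.1 CPM at 1 h. They were 30.2, 26.0 and 26.2 CPM at 3 h and 30.1, 34.8 and 31.5 CPM at 6 h. At 12 h they were 8.57, 6.42 and 10.7 CPM, and at 24 h 7.03, 7.99 and 8.54 CPM. Every library of the last 2 times lay below every earlier library, and the values at 12 h and 24 h overlapped. The C3 entry is ENSG00000125730, on chromosome 19 from 6677704 to 6730562 on the minus strand (GRCh38, GENCODE 29, protein-coding), with whole counts of 120 to 583 in all 17 libraries. GPR108, a protein-coding gene on the same strand from 6729914 to 6737603, overlaps the start (5′ side) of C3 and had up to 1001 counts in a library.

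Against 0 h, the log2 fold change of C3 was -0.02 (1 h), -0.22 (3 h), 0.0028 (6 h), -1.91 (12 h) and -2.03 (24 h), values given without a test because the choice of the set used the 0 h and 12 h libraries. At 12 h 34 of the 15365 genes tested had a lower log2 fold change. C3 was chosen for this fall, so a low rank was fixed in advance and nothing is read from it. Leaving out single libraries moved the 12 h value between -2.11 and -1.72. Comparisons that use neither time can be tested. C3 was lower at 24 h than at 6 h by 2.03 on the log2 scale (log2 fold change -2.03, SE 0.132, adjusted p 2.84e-09, edgeR), with all 3 of its libraries under the lowest of 6 h, and between -2.10 and -1.96 with any 1 library left out. It was not called between 1 h and 3 h (-0.21, SE 0.129, adjusted p 0.408) or between 3 h and 6 h (0.23, SE 0.116, adjusted p 0.123). The last of these was called with no filter on low counts (0.25, adjusted p 0.0413).

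CFB fell with C3, by a smaller amount. Its levels were 62.7, 61.8 and 69.1 CPM at 0 h and 62.4, 58.3 and 59.4 CPM at 6 h. They were 29.8, 31.3 and 36.7 CPM at 12 h and 36.2, 33.2 and 33.0 CPM at 24 h, with no overlap between the first pair of times and the second. At 1 h and 3 h the level lay between 57.6 and 67.3 CPM. CFB was lower by 0.92 on the log2 scale at 24 h than at 0 h (log2 fold change -0.92, SE 0.0749, adjusted p 8.32e-08), by 0.88 at 12 h than at 6 h (-0.88, adjusted p 2.12e-07) and by 0.81 at 24 h than at 6 h (-0.81, SE 0.0751, adjusted p 2.17e-07). The CFB entry, ENSG00000243649, lies on chromosome 6 from 31945650 to 31952084, plus strand, and its counts were not whole in 3 libraries. It overlaps the end of C2 and a readthrough gene, AL645922.1, which had at most 13.7 counts in any library.

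C1R and C1S, which lie next to each other on chromosome 12 on opposite strands (C1R from 7080199 to 7092607, C1S from 6988259 to 7071032), also fell. C1R stood at 16.5, 16.3 and 18.5 CPM at 0 h and at 18.9, 16.9 and 14.7 CPM at 6 h. It stood at 7.82, 8.13 and 9.50 CPM at 12 h and at 8.96, 8.74 and 9.34 CPM at 24 h, below all 11 earlier libraries. C1R was lower at 24 h than at 0 h (log2 fold change -0.92, SE 0.102, adjusted p 3.87e-06), lower at 12 h than at 6 h (-0.98, adjusted p 2.22e-06) and lower at 24 h than at 6 h (-0.90, SE 0.102, adjusted p 2.81e-06). C1S was the scarcest tested member, with 4.54, 3.05 and 4.29 CPM at 0 h and 3.73, 3.98 and 3.29 CPM at 6 h. At 12 h it stood at 2.61, 1.76 and 2.44 CPM, and at 24 h it stood at 1.70, 2.17 and 1.27 CPM. With 19 to 74 counts per library its values are the least precise, but the 24 h libraries lay below all those of 0 h and 6 h. C1S was lower at 24 h than at 0 h (-1.20, SE 0.222, adjusted p 5.26e-04) and than at 6 h (-1.09, SE 0.224, adjusted p 0.00141). Its fall from 6 h to 12 h (-0.70, adjusted p 0.0243) missed the threshold once replicate 2 of 6 h (-0.64, adjusted p 0.0870) or replicate 2 of 12 h (-0.53, adjusted p 0.111) was dropped, or replicates 2 and 3 of 6 h and of 24 h were averaged (-0.69, adjusted p 0.0524). The longest C1S transcripts overlap EMG1 and LPCAT3, and C1R overlaps C1RL, but C1S counts were whole in all libraries and C1R counts in all but 1.

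The promoters of CFB and C1R, which fell together, and of CD55, which rose (below), are shown as the 250 bases before the transcript start in RefSeq (GRCh38.p14), read 5′ to 3′ on the gene's strand. GENCODE also places some transcript starts of these genes further upstream, inside these windows or before them. CFB lies at chr6:31945845-31946094 (plus strand), C1R at chr12:7092446-7092695 (minus strand, the first of 2 listed starts) and CD55 at chr1:207321428-207321677 (plus strand). Capitals mark matches to 4 motifs searched on both strands.
CFB: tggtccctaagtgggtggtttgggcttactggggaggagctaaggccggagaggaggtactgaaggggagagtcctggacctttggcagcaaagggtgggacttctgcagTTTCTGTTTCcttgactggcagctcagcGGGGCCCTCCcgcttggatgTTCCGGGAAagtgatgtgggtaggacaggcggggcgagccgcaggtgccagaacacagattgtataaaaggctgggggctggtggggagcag
C1R: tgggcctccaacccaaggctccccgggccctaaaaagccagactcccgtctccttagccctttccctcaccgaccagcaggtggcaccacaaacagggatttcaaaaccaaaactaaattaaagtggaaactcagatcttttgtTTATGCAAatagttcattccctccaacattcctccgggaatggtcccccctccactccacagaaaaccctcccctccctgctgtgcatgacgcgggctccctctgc
CD55: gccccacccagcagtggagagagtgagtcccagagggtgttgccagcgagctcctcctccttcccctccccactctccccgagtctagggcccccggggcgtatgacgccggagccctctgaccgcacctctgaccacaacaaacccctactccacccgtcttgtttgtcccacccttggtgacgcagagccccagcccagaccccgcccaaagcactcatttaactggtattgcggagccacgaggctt

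The motifs were the κB consensus bound by NF-κB, TTGCNNAA (the core of a C/EBP site), TTCNNNGAA (the GAS element bound by STAT factors) and the ISRE-type repeat of GAAA with any 2 bases between. These are the elements that textbooks link to the induction of complement genes by cytokines. In CFB, the ISRE-type match lay at -140 to -131 on the opposite strand, a κB match at -112 to -103 and a GAS match at -92 to -84, with no overlap among them. In C1R, a match to TTGCNNAA lay at -106 to -99 before the first start, and before the second start a match lay at -167 to -160 with a GAS match at -86 to -78. CD55 and both CD46 entries held 0 matches, and CD59 held matches before 3 of its 4 starts. Both entries of C2, a complement gene outside the set that fell (below), also held 0 matches. Of 35116 windows of the same length, 9.96% held the κB consensus, 9.05% TTGCNNAA, 6.57% TTCNNNGAA and 3.02% the ISRE-type repeat. A match is a description of the letters only. RefSeq promoters of 5 members were used, and C3, C1S and SERPING1 had no entry.

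CD55, unlike the components, rose late. Its levels were 146, 137 and 153 CPM at 0 h and 161, 165 and 153 CPM at 6 h. They were 155, 182 and 172 CPM at 12 h and 210.4, 198 and 203 CPM at 24 h. All 3 libraries at 24 h lay above all 14 others. CD55 was higher at 24 h than at 0 h (log2 fold change 0.49, SE 0.0651, adjusted p 2.53e-05), than at 6 h (0.36, SE 0.0648, adjusted p 4.86e-04) and than at 12 h (0.27, SE 0.0646, adjusted p 0.0133). The last call was lost on dropping replicate 1 of 12 h (0.21, adjusted p 0.0812) and with replicates 2 and 3 averaged at 24 h (0.28, adjusted p 0.0513). Its entry, ENSG00000196352, lies on chromosome 1 from 207321376 to 207386804, in the same region as CD46 (207752057 to 207795513).

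CD46 dipped at 3 h, and CD59 was not called at any time. CD46 stood at 160, 162 and 173 CPM at 0 h and 133, 125 and 153 CPM at 3 h (log2 fold change -0.27, SE 0.0788, adjusted p 0.0243), without overlap. This call rested on single libraries: dropping replicate 2 of 0 h (-0.28, adjusted p 0.0531), replicate 3 of 0 h (-0.23, adjusted p 0.108), replicate 1 of 3 h (-0.25, adjusted p 0.0877) or replicate 2 of 3 h (-0.20, adjusted p 0.125) ended it. At 6 h CD46 was again higher than at 3 h (0.20, adjusted p 0.0436), a call that ended on dropping replicate 1 (0.18, adjusted p 0.127) or 2 (0.14, adjusted p 0.212) of 3 h, or replicate 2 (0.16, adjusted p 0.160) or 3 (0.18, adjusted p 0.126) of 6 h. It also ended with upper-quartile scaling (0.14, adjusted p 0.129), with only both groups fitted (0.19, adjusted p 0.0654), with replicates averaged (0.17, adjusted p 0.168) and after correction for transcript length and GC content (0.07, adjusted p 0.242). At 24 h it stood at 170, 183 and 183 CPM and was not called against 6 h (0.18, SE 0.0780, adjusted p 0.106), although it was called in a fit of these groups alone (0.20, adjusted p 0.0457), with library size as the only scaling (0.25, adjusted p 0.0451), with upper-quartile scaling (0.22, adjusted p 0.0311) and after the length and GC correction (0.18, adjusted p 0.00441). CD59 lay between 534 and 594 CPM in all 17 libraries and was called in none of the comparisons (24 h against 0 h: log2 fold change -0.07, SE 0.0506, adjusted p 0.318).

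The calls of CD59 depended on a joint correction for transcript length and GC content. CD59 has the longest transcript of the set (7.63 kilobases), and the relation of counts to transcript length was not equal across libraries: log2 CPM changed per doubling of length by between -0.07 and -0.01 at 0 h and between 0.02 and 0.14 at 24 h, relative to the mean of all libraries. After the joint correction, CD59 was lower than at 0 h both at 6 h (-0.16, adjusted p 0.0197) and at 24 h (-0.30, adjusted p 1.51e-04); the parts of length and of GC content were not tested apart. CD59 counts were not whole in any library, and AL049629.2 overlaps it on the same strand, so its values are uncertain; why its counts were not whole was not tested. For C3 the same correction gave -2.05 at 24 h against 6 h (adjusted p 1.06e-10) and -1.91 at 12 h against 0 h.

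Over the members, the comparison of 24 h with 6 h, which uses neither time behind the choice, called 4 of the 7 tested lower (C3, CFB, C1R and C1S) and 1 higher (CD55), where 12.1% of all 15365 genes were called lower and 11.0% higher. The median log2 fold change of the 7 was -0.81, against -0.01 over all genes. Against 0 h, with C3 set aside, 3 of 6 were lower and 1 higher at 24 h (17.1% and 18.0% of all genes). From 6 h to 12 h, 3 of 6 were lower and 0 higher (11.9% and 8.70%). Both of these comparisons share libraries, of 0 h or of 12 h, with the one behind the choice, so they are not independent of it. At 12 h against 0 h, the contrast of the choice, the libraries of 5 members lay wholly below those of 0 h and those of 1 wholly above, where 15.7% and 16.9% of all genes did so, and nothing is read from this.

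The early comparisons called few members. At 1 h against 0 h edgeR called 0 of 6 (0 at an unadjusted p below 0.05, 0 by DESeq2 and 0 by limma-voom; 0.312% of all genes were called). At 3 h against 0 h, 1 was lower, CD46, and 0 higher (8.71% and 9.04% of all genes). At 6 h against 0 h edgeR called 0 of 6, with 1 at an unadjusted p below 0.05 and 0 by DESeq2 and by limma-voom (16.9% of all genes higher, 13.2% lower). From 1 h to 3 h, 0 of 7 were called, with 1 at an unadjusted p below 0.05 and 0 by the other tools (5.73%), and from 3 h to 6 h 1 was higher and 0 lower (22.9% and 20.3%). From 12 h to 24 h 1 of 6, CD55, was higher (6.42%). An F-test of equal levels at 1, 3, 6 and 24 h called 6 of the 7, all but CD59 (adjusted p 0.483), with 62.7% of all genes called. In that test C3 had an adjusted p of 3.36e-09 and CD46 of 0.00304.

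**Figure D2:**
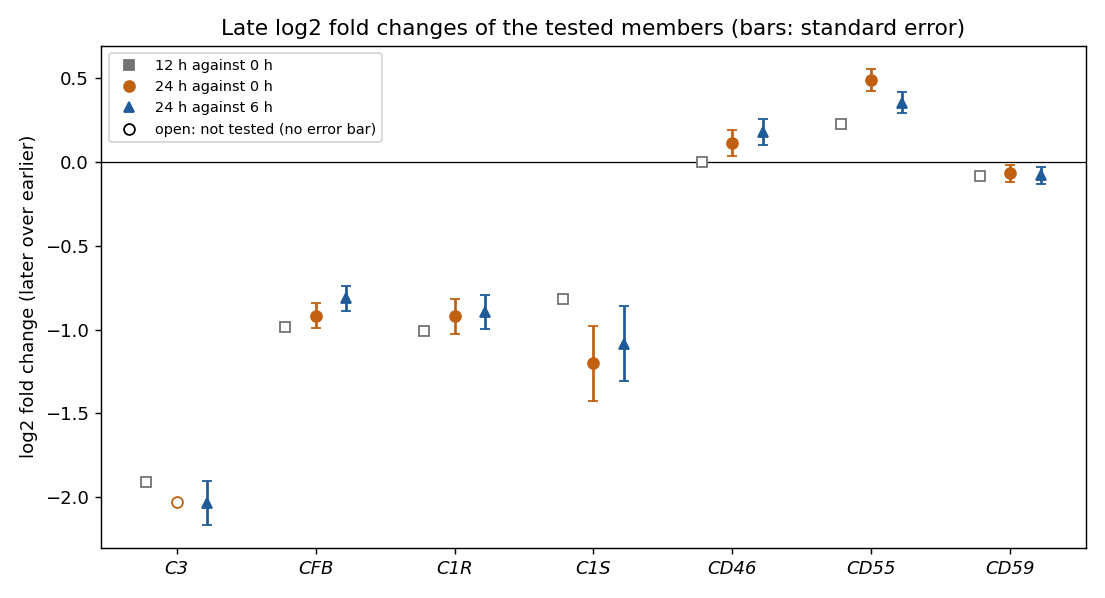
Log2 fold change of the 7 tested members at 12 h against 0 h (squares), 24 h against 0 h (circles) and 24 h against 6 h (triangles), with bars of 1 standard error; open symbols were not tested. C3 lies near -2, CFB, C1R and C1S near -1, and CD55 above 0 in all 3 comparisons.

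Ratios within a library do not depend on how libraries are scaled. The summed CPM of CD46, CD55 and CD59 was 7.13 to 8.58 times that of C3, CFB, C1R and C1S in the 11 libraries up to 6 h. It was 15.0 to 19.1 times at 12 h and 17.7 to 17.9 times at 24 h, without overlap. The ratio of C3 to CFB, 0.537 ± 0.0573 at 6 h (SD, n = 3), was 0.262 ± 0.0492 at 12 h and 0.231 ± 0.0335 at 24 h, so that C3 dropped further than CFB in each late library. The ratio of C1R to C1S showed no such shift beyond its spread, at 4.59 ± 0.425 at 6 h and 5.56 ± 1.69 at 24 h. These ratios share the libraries that chose the set and are given as descriptions.

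**Figure D3:**
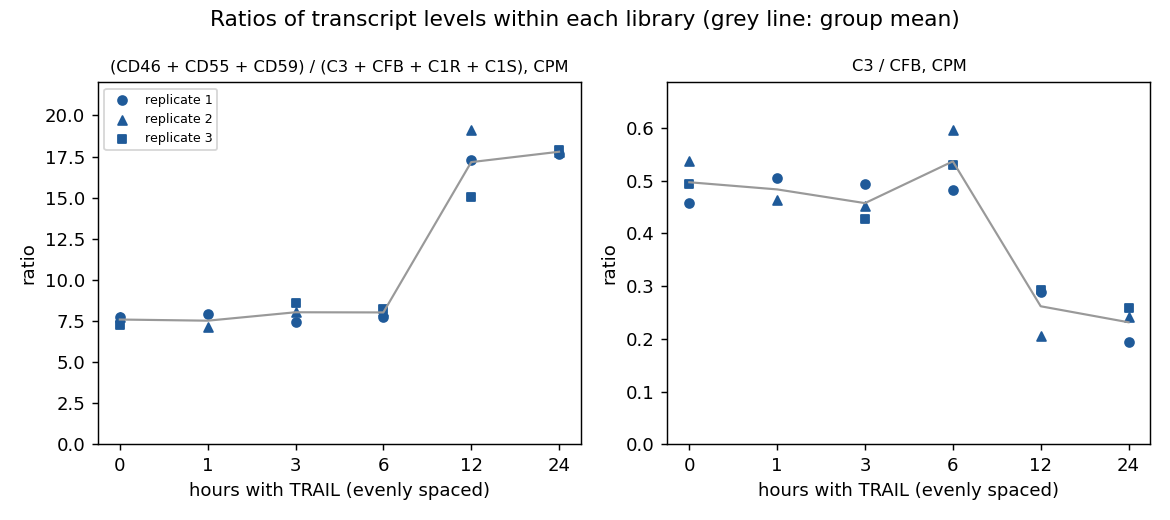
Left, summed CPM of the membrane inhibitors over that of C3, CFB, C1R and C1S in each library; right, C3 over CFB; the horizontal axis gives hours with TRAIL, evenly spaced, and the grey lines join group means. The left ratio is at most 8.58 up to 6 h and at least 15.0 from 12 h, and the right ratio lies between 0.194 and 0.292 from 12 h.

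The genes whose log2 CPM ran most like that of C3 over the 17 libraries, among 11328 others whose mean log2 CPM was 2 or higher, included further complement genes. Pearson's r was highest for MELTF (0.98), followed by CFB (0.97), C1R (0.97), C4B (0.96) and CDCA4 (0.95). MELTF, which encodes melanotransferrin, averaged 209 CPM at 0 h and 130 CPM at 24 h. At the other end stood CEP70 (-0.96), ZNF512 (-0.94) and SLC20A1 (-0.94). CD59 had r = 0.65, CD46 -0.48 and CD55 -0.80. C1S, whose mean log2 CPM lay under 2, was not ranked, and neither was SERPING1. The libraries share their time groups and their scaling, so these values describe likeness only.

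Of 53 other complement genes, 19 passed the count filter. The transcripts of C1QA, C1QB and C1QC, which form the recognition part of C1, of MBL2 and of C9 did not exceed 2 counts in any library. The anaphylatoxin receptor genes C3AR1 and C5AR1 had at most 9 and 11 counts, and CR1 had 0. At 24 h against 6 h, 4 of the 19 were lower and 4 higher (12.1% and 11.0% of all genes), with a median log2 fold change of -0.05, against -0.01 over all genes. The lower genes were C2, C4A, C4B and VTN, and the higher ones included C4BPB, THBD and CALR. Against 0 h, 8 were lower and 4 higher at 24 h (17.1% and 18.0% of all genes), 1 lower and 1 higher at 3 h (8.71% and 9.04%), and 5 lower and 1 higher at 6 h (13.2% and 16.9%). Those 6 calls at 6 h became 1 on dropping replicate 3 of 6 h, 2 on dropping replicate 2 of 6 h or replicate 1 or 2 of 0 h, and 3 on dropping replicate 3 of 0 h. At 1 h edgeR called 0 of 19 (0.312% of all genes), with 0 at an unadjusted p below 0.05 and 0 by DESeq2 and limma-voom.

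C4 and C2, the substrates of C1s that form the classical convertase, fell with the components above. C4A and C4B are near-identical neighbours on chromosome 6 (31982024 to 32002681 and 32014795 to 32035418) whose counts were not whole in any library, so their sum is the safer measure. The sum was 25.1, 27.8 and 31.0 CPM at 0 h and 30.5, 32.2 and 31.9 CPM at 6 h. It was 12.6, 14.1 and 14.9 CPM at 12 h and 11.3, 10.6 and 12.2 CPM at 24 h, below all earlier libraries, a log2 ratio of mean levels of -1.47 between 24 h and 6 h. Taken singly, C4A was lower at 24 h than at 6 h by 1.41 (log2 fold change -1.41, SE 0.130, adjusted p 2.16e-07) and C4B by 1.53 (-1.53, SE 0.154, adjusted p 7.02e-07). C2 averaged 17.7 ± 1.11 CPM at 6 h and 12.7 ± 0.807 CPM at 24 h (SD, n = 3; log2 fold change -0.48, adjusted p 0.00106). CFB, C2, C4A and C4B lie in the same stretch of chromosome 6, between 31897785 and 32035418. The only other tested gene of the thioester family of C3 was C5, which was not called at 24 h against 6 h (-0.14, SE 0.152, adjusted p 0.548). C1RL, a relative of C1R, averaged 2.31 CPM at 6 h and 2.95 CPM at 24 h and was not called (0.36, adjusted p 0.227).

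Soluble and membrane regulators moved in both directions. C4BPB, the beta chain of the C4b-binding protein, was higher at 3 h than at 0 h (50.8 ± 2.17 against 36.5 ± 2.49 CPM, log2 fold change 0.48, adjusted p 3.99e-04) and higher at 24 h than at 6 h (0.31, adjusted p 0.00737), the latter not with replicates 2 and 3 averaged (0.29, adjusted p 0.0596). THBD, thrombomodulin, was higher at 24 h than at 6 h (60.3 ± 4.05 against 45.8 ± 2.93 CPM, log2 fold change 0.40, adjusted p 0.00193). VTN, vitronectin, which holds off the membrane attack complex, was lower (1.06 ± 0.269 against 2.34 ± 0.0269 CPM, log2 fold change -1.14, adjusted p 0.00609), on 13 to 44 counts. CLU, clusterin, was not called between these times (-0.05, SE 0.0735, adjusted p 0.653). It was called lower at 24 h than at 0 h (47.7 ± 3.50 against 56.8 ± 2.20 CPM). That call was lost with library size as the only scaling (-0.18, adjusted p 0.0536) and on dropping replicate 2 of 24 h (-0.20, adjusted p 0.0774). At 24 h against 6 h the alternative pathway genes CFD (0.57, adjusted p 0.136) and CFP (0.34, adjusted p 0.0518) were not called. However, dropping replicate 2 of 24 h gave a call for CFP (0.48, adjusted p 0.00862) and dropping replicate 1 of 6 h gave one for CFD (0.91, adjusted p 0.0297). CFP was also called with no filter (0.34, adjusted p 0.0479), upper-quartile scaling (0.39, adjusted p 0.0316) and library size alone (0.42, adjusted p 0.0164). Both were called after the length and GC correction (0.65 for CFD, adjusted p 0.0275, and 0.38 for CFP, adjusted p 0.00821). Their levels were lowest at 6 h: CFD averaged 3.61, 1.96 and 2.88 CPM at 0, 6 and 24 h, and CFP 12.3, 8.92 and 11.3 CPM. Both were called lower at 6 h than at 0 h, among the calls whose number fell when single libraries were dropped (above). Neither was called at 24 h against 0 h.

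**Figure D4:**
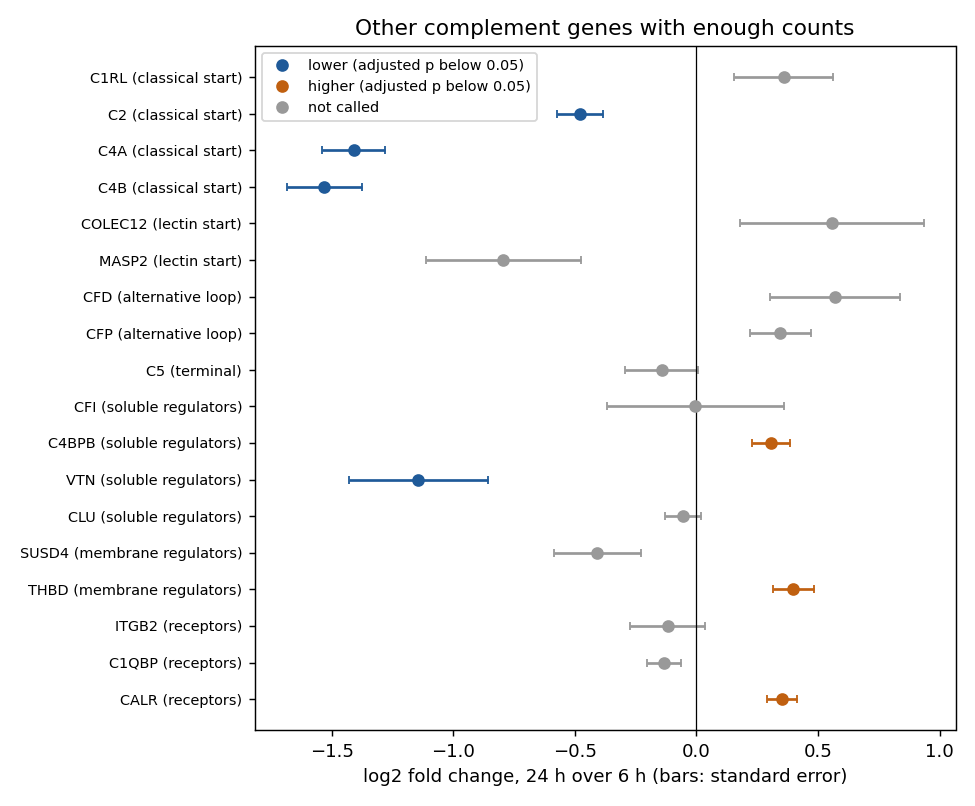
Log2 fold change at 24 h against 6 h (horizontal axis) of 18 other complement genes that passed the count filter, with bars of 1 standard error, grouped by role on the vertical axis; blue is lower, orange higher and grey not called. C4A and C4B lie furthest left, and the called genes C4BPB, THBD and CALR lie between 0.31 and 0.40.

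Marker sums and library properties at 6, 12 and 24 h are given beside these late differences. The 6 mesenchymal markers, all past the filter, summed to 7484 to 7494 CPM at 6 h, 6917 to 7198 at 12 h and 6544 to 6636 at 24 h, without overlap. Their members went different ways between 6 h and 24 h. VIM (3205 and 2611 CPM), CD44 (1535 and 1271) and CAV1 (965 and 861) averaged less at 24 h. AXL (891 and 927), MSN (892 and 912) and SPARC (0.541 and 0.619) averaged slightly more. Summed luminal or epithelial markers, with 5 of 7 passing, stood at 1560 to 1670 CPM (6 h), 1524 to 1780 (12 h) and 1408 to 1580 (24 h). Summed leukocyte markers, of which 3 of 7 passed the filter, stood at 77.1 to 78.8 CPM at 6 h, 74.7 to 78.7 at 12 h and 99.9 to 106 at 24 h, most of it CD68 (95.6 CPM at 24 h), a lysosomal gene that is not confined to leukocytes. Summed endothelial markers, with 1 of 3 passing, stood at 0.971 to 1.33 CPM at 6 h, 1.25 to 2.28 at 12 h and 2.85 to 4.10 at 24 h. Summed fibroblast markers, with 4 of 6 passing, stood at 21.1 to 24.5 CPM (6 h), 18.1 to 20.7 CPM (12 h) and no more than 20.4 CPM (24 h), but its members went different ways. Between 6 h and 24 h COL1A1 was lower (13.1 and 6.25 CPM, log2 fold change -1.06, adjusted p 1.54e-05), PDGFRB was higher (2.10 and 4.32 CPM, 1.04, adjusted p 8.97e-04), and COL1A2 was not called (6.82 and 8.42 CPM, 0.30, adjusted p 0.237). Of the 4 hepatocyte markers 0 passed, and their sum did not exceed 0.699 CPM in any library. Mitochondrial genes took 5.53% to 8.37% of counts at 0 h, 3.97% to 5.45% at 6 h, 5.01% to 6.80% at 12 h and 3.66% to 4.14% at 24 h. The part of these markers and shares in the results was not tested.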

How the data were processed

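RNA of 17 libraries was sequenced as stranded, poly(A)-selected paired reads, per the labels' protocols. The authors deposited RSEM gene-level expected counts, unscaled, per the file name, and 10.8% of the values were not whole. Per the submitters' processing notes, cutadapt 1.18, STAR 2.7.0f and hg38 were used; the annotation release and strand setting are not given in the sources used here. Without a known strand setting, overlapping genes may exchange counts. Positions and transcript lengths are those of GENCODE 29 (GRCh38), which held 58597 of the 58870 identifiers, versions ignored.

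Expected counts were rounded, filtered by filterByExpr, scaled by TMM and fitted with 1 mean per time in edgeR 4.0.16 (R 4.3.3; quasi-likelihood, robust). Calls need a Benjamini-Hochberg adjusted p below 0.05 over the 15365 genes tested. Adjusted p-values are edgeR's unless another tool is named. CPM use the TMM-scaled totals, and log2 CPM for likeness a prior count of 2. Kilobases refer to the longest protein-coding transcript. The fitting was checked on simulated data. The members, the gene lists and the tests were chosen with earlier results of these data known. All 8 members are named. Values of some other genes are not reported here. Of the lists (other complement genes, thioester family, cytokine and transcription factor genes linked to complement, acute phase genes, cell markers), each gene that passed the filter could be named, and likeness to C3 names the 5 highest and 3 lowest correlations. Alternatives were other scalings (RLE, upper-quartile, library size), filters and tools (DESeq2 1.42.0, limma-voom 3.58.1), non-robust fits, fits of 2 groups, a replicate block, unrounded counts, averaging of the closest replicates, offsets for length and GC content, and each library left out.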

Additional observations from a re-analysis of the deposited data

How the results depend on the processing

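At 24 h against 6 h, C3, CFB, C1R, C1S and CD55 were called under every alternative run, and CD46 joined them under 4, giving 6. At 24 h against 0 h, 4 members were called, and 5 with the length and GC offsets. Among 1, 3, 6 and 24 h, 6 changed, and 7 under 1 alternative; this test was not run with DESeq2 or with fits of 2 groups. C3 at 12 h against 0 h ranged from -2.11 to -1.72 with libraries left out. With libraries left out, members called ranged from 0 to 1 at 3 h against 0 h, 6 h against 3 h and 24 h against 12 h, and from 2 to 3 at 12 h against 6 h. The other complement genes called ranged from 1 to 2 (3 h against 0 h), 1 to 5 (6 h against 0 h), 0 to 1 (3 h against 1 h), 1 to 5 (6 h against 3 h), 3 to 6 (12 h against 6 h), 0 to 2 (24 h against 12 h), 11 to 12 (24 h against 0 h) and 8 to 9 (24 h against 6 h).

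Members called at 6 h against 3 h numbered 1, but 0 with upper-quartile scaling, 0 in the fit of 2 groups, 0 with replicates averaged and 2 with no filter. Averaging also gave 0 at 24 h against 12 h (1 otherwise). The length and GC offsets gave 3 at 6 h against 0 h (0 otherwise), CD59 there turning to -0.16 and at 6 h against 3 h to -0.17. Other complement genes at 3 h against 0 h, 2, numbered 1 with DESeq2, limma-voom and the fit of 2 groups. At 6 h against 0 h, 6 became 2 with averaging. At 6 h against 3 h, 5 became 3 with DESeq2, 2 with the offsets and 1 with averaging. At 24 h against 12 h, 1 became 3 with library size or no filter, 2 with a mean count of 10 or limma-voom, 4 with DESeq2 or the offsets and 0 with averaging. Where an alternative tests fewer samples or genes its construction bears on the count; otherwise the cause was not tested.

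Same-numbered replicates did not deviate together across all times (correlations from -0.20 to 0.21, median 0.01, above 0.1 in 8 of 40 pairs). The libraries of replicate 1 at 0, 6, 12 and 24 h were weakly correlated with each other, between 0.07 and 0.21. With the replicate block, 2 other complement genes were called at 24 h against 12 h in place of 1, and C3 at 24 h against 6 h was -2.03. Depth limits the genes of few counts, among them C1S and VTN, and SERPING1 could not be tested.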

Other observations

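Acute phase genes, which in liver respond to the same cytokines as C3 and CFB, were partly expressed: 6 of 15 passed the count filter. At 24 h against 6 h, 3 of the 6 were lower and 0 higher (12.1% and 11.0% of all genes), with a median log2 fold change of -0.25 against -0.01 over all genes. LCN2, lipocalin 2, averaged 2.03 ± 0.328 CPM at 6 h and 0.382 ± 0.291 CPM at 24 h (n = 3, 2 to 35 counts; log2 fold change -2.34, SE 0.365, adjusted p 9.54e-05). SERPINA3, a protease inhibitor, averaged 4.01 ± 0.278 and 1.65 ± 0.474 CPM (-1.27, SE 0.198, adjusted p 9.57e-05). SAA2, serum amyloid A2, was lower by 0.33 (-0.33, adjusted p 0.0153), a call lost on dropping replicate 1 of 6 h (-0.29, adjusted p 0.0654) or replicate 3 of 6 h (-0.30, adjusted p 0.0608) and with replicates averaged (-0.34, adjusted p 0.0666). SAA1 (-0.16, SE 0.0972, adjusted p 0.247), SERPINA1 (-0.12, adjusted p 0.231) and PTX3 (-0.01, adjusted p 0.948) were not called.

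Of 18 cytokine and transcription factor genes linked to complement transcription, 15 passed the filter. At 24 h against 6 h, 4 were higher and 7 lower (11.0% and 12.1% of all genes), but at 24 h against 0 h 10 were higher and 1 lower (18.0% and 17.1%). The higher genes at 24 h against 6 h were CEBPD (0.77, adjusted p 7.02e-04), IRF9 (0.47, adjusted p 0.00520), IRF1 (0.38, adjusted p 2.92e-04) and STAT2 (0.32, adjusted p 0.00205), the last 3 of which act in interferon responses. Those lower included IL6 (-0.53, adjusted p 4.57e-04), RELB (-0.52, adjusted p 8.39e-05) and CEBPB (-0.53, adjusted p 0.00584). At 0, 6 and 24 h IL6 averaged 10.4, 26.8 and 18.6 CPM and RELB 19.9, 48.5 and 33.7 CPM, both above 0 h at 24 h. CEBPB averaged 36.3, 36.1 and 24.9 CPM at the same times, below 0 h at 24 h. CEBPD averaged 7.01 ± 0.340 CPM (0 h), 12.1 ± 0.648 CPM (3 h), 5.16 ± 0.389 CPM (6 h) and 8.82 ± 0.377 CPM (24 h; SD, n = 3).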
